A study of Homo sapiens with 6 samples.

Results

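The pyruvate dehydrogenase complex, the kinases that switch it off and a phosphatase that switches it back on were followed here in NOMO-1 cells, a monocytic cell line from a human acute myeloid leukaemia, with and without a knockout of MSLN, the gene of the cell-surface protein mesothelin. The members are 10 genes: PDHA1, PDHB, DLAT, PDHX and DLD of the complex, PDK1, PDK2, PDK3 and PDK4 of the kinases, and the phosphatase gene PDP1. They were chosen by gene symbol among the genes the deposited table lists, and the set was proposed with the MSLN-KO against WT values of this table already known, the low PDK4 level in MSLN-KO among them. All 10 were listed, out of 11363 genes in all. Because of that choice, the values and calls of the members are given as a description, and no p-value is printed for them. Their calls come from the fit over all listed genes and are no test of the set.

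The complex sits in the mitochondrial matrix and turns pyruvate from glycolysis into acetyl-CoA, which enters the tricarboxylic acid cycle or leaves for lipid synthesis. Its E1 enzyme, a tetramer of alpha and beta chains, decarboxylates pyruvate, its E2 core passes the acetyl group to coenzyme A through a lipoate arm, and its E3 enzyme reoxidises that arm. The kinases phosphorylate E1 alpha and stop the reaction, and the phosphatases remove the phosphate. PDK4 is the kinase known for its induction in fasting, through PPAR nuclear receptors, the glucocorticoid receptor and FOXO transcription factors, and PDK1 is a known target of the hypoxia-inducible factor.

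The series holds 6 total RNA libraries, 3 of NOMO-1 cells with the WT genotype and 3 of NOMO-1 cells with the MSLN-KO genotype. No other treatment, time or allele is given in the labels, and they do not say how the knockout was made, whether the MSLN-KO cells are 1 clone or several, or whether the libraries of a group came from separate cultures. The p-values therefore measure only the spread between these libraries, which may be technical. Expression is given as CPM, read counts scaled to library size and normalized by the authors, and a change as the MSLN-KO minus WT difference of log2(CPM + 1) with its standard error (SE). Means are given with the SD over 3 libraries. A gene was called at a limma adjusted p under 0.05 (Benjamini-Hochberg over all listed genes, two-sided).

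Of all listed genes, 5197 (45.7%) were called: 2545 (22.4%) stood higher in MSLN-KO and 2652 (23.3%) lower, while 6219 (54.7%) had groups that did not overlap. The median change of all genes was 0.01, with quartiles at -0.17 and 0.18. MSLN itself, the targeted gene, was at 153.2, 122.9 and 105.9 CPM in WT and at 45.7, 46.9 and 45.3 CPM in MSLN-KO. The reads of the targeted gene do not show whether a small edit disrupts the protein. The WT and MSLN-KO libraries also differed in whole chromosome segments. All 7 listed genes on chromosome 9 between 20658309 and 27573866 (GRCh38) were listed at 0 in every WT library. They averaged 6.58 to 18.1 CPM in MSLN-KO. Those bounds are the outer ends of the chromosome 9 genes at 0 in every WT library, so they were set from these data. A gene at 0 in every WT library can be listed only with every MSLN-KO library at 4.9 CPM or more. The 371 listed genes of chromosome 15 had a median change of -0.57. These segments separate the same libraries as the knockout does, so the knockout and the other differences between the cells cannot be told apart, and this holds for every result that follows. None of the 10 members lies on chromosome 15 or in that segment of chromosome 9. All 10 markers of myeloid leukaemia cells were listed, 2 called higher and 5 lower, and their summed level was 16127 to 16770 CPM in WT and 7550 to 8018 CPM in MSLN-KO, most of it from LYZ, the lysozyme gene. Of the markers of other cell types only NKG7, CD79B, ITGA2B, KRT18, PECAM1 and CKM were listed, 1 for each of 6 lists. The B cell marker CD79B was at 13.0 to 15.3 CPM in WT and 3.65 to 4.31 CPM in MSLN-KO, and the platelet marker ITGA2B at 1.39 to 2.04 CPM in WT and 6.72 to 7.42 CPM in MSLN-KO. PECAM1, from the list for stromal and endothelial cells, was at 496.5 to 533.3 CPM in WT and 379.1 to 387.2 CPM in MSLN-KO. The list in which a gene stands does not show which cells its RNA came from. NKG7, of T and NK cells, was at 37.1 to 40.9 CPM in WT and 29.3 to 34.8 CPM in MSLN-KO. PECAM1 and NKG7 were called lower, and KRT18 and CKM were not called. No part of these marker differences in the results was tested. Fewer cells expressing a gene and less RNA per cell cannot be told apart in such bulk libraries.

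Among the members, 4 were called lower, 1 higher and 5 not, and 7 had groups that did not overlap. With 45.7% of all genes called and 54.7% not overlapping, such counts are near the share of the whole table, and nothing is read from them. The median change of the 10 members was -0.14. What sets the members apart from each other is the size of the change: PDK4 was lower by a factor of 35.2, while no other member moved by more than 0.29 on the log2 scale.

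The promoters of PDK4, PDHA1 and PDHB are shown first, because these genes hold the largest of the changes and both chains of the E1 enzyme. Each line gives the 250 bases upstream of the annotated start, 5′ to 3′ on the strand of the gene, from RefSeq on GRCh38.p14: PDK4 from the minus strand at chr7:95596517-95596766, PDHA1 from the plus strand at chrX:19343677-19343926 and PDHB from the minus strand at chr3:58433833-58434082. Capitals mark the CCAAT box (CCAAT, or ATTGG on the other strand) and the GC box (GGGCGG, or CCGCCC on the other strand), 2 short motifs common in promoters that lack a TATA box.
PDK4: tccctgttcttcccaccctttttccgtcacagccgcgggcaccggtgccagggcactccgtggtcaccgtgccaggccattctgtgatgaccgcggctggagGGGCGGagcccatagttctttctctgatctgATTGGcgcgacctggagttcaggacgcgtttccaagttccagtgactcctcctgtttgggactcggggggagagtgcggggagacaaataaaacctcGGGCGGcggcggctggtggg
PDHA1: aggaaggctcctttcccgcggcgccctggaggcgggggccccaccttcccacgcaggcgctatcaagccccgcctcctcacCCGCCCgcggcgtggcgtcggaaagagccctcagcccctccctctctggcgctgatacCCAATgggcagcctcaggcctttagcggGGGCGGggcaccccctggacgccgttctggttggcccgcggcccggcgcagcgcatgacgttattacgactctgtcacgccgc
PDHB: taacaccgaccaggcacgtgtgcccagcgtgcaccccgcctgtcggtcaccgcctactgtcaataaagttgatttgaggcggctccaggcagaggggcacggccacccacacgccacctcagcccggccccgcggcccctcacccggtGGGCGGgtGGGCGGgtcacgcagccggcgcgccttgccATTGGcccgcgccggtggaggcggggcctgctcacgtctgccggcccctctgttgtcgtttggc
All 3 upstream stretches held a CCAAT box and at least 2 GC boxes. Over the 300 bases from 250 before to 50 after the start, 34.6% of the 35116 promoter windows in the RefSeq table held a CCAAT box and 45.0% a GC box on either strand.

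PDHA1, PDHB, DLAT, PDHX, DLD and the 4 kinases had such windows, 14 in all, and PDP1 had no entry. A CCAAT box was present in 8 of these 9 genes, all but DLAT, and a GC box in 7. Counted as windows, to be set beside the shares of all windows, 9 of the 14 held a CCAAT box and 9 a GC box. The core of the hypoxia response element (ACGTG) lay in 6 of the 14 windows, 1 each of PDK1, PDK2, PDK3, PDHB, PDHX and DLAT, against 21.4% of all windows, and not in those of PDK4, PDHA1 and DLD. The FOXO site TGTTTAC, present in 3.42% of all windows, lay in no member's window. Its shorter core TGTTT, present in 44.4%, lay in 8 of the 14 windows, those of 5 genes with PDK4 among them, where it overlaps neither box. The estrogen-related receptor site TCAAGGTCA (0.353% of all windows) and the ETS site CCGGAAG (10.3%) lay in none either. The nuclear receptor hexamer AGGTCA, which the estrogen-related receptor site contains, lay in that of DLAT alone (13.8% of all windows). YY1's site AAGATGGC (2.89%) lay in those of PDHB and PDHX, and a TATAAA box (11.5%) in that of PDK1. These matches describe letters in the windows, and no binding was measured.

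Within the E1 enzyme, the RNA of both chains was lower in MSLN-KO, that of the alpha chain more than that of the beta chain. PDHA1 (ENSG00000131828.14, chromosome X, 19343893 to 19361705) encodes E1 alpha, the chain the kinases phosphorylate. It was at 110.2, 109.4 and 114.3 CPM in WT and 89.2, 94.1 and 89.9 CPM in MSLN-KO. Every MSLN-KO library lay below every WT library, with means of 111.3 ± 2.66 and 91.08 ± 2.66 CPM and a change of -0.29 (SE 0.05). PDHB (ENSG00000168291.13, chromosome 3, 58427630 to 58433857) encodes E1 beta and was at 93.4, 92.0 and 98.4 CPM in WT and 83.6, 84.4 and 88.3 CPM in MSLN-KO. Its groups did not overlap either, and its change of -0.15 (SE 0.05) was called. That call was lost when WT replicate 1, WT replicate 3, MSLN-KO replicate 1 or MSLN-KO replicate 2 was left out, when the columns were rescaled to the same total, and without the variance trend.

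The ratio of PDHA1 to PDHB in CPM was 1.18, 1.19 and 1.16 in WT and 1.07, 1.12 and 1.02 in MSLN-KO. All 3 MSLN-KO ratios were lower than all 3 WT ratios. The RNA of the alpha chain was thus lower relative to that of the beta chain as well as in itself.

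The gene of the E2 core was lower as well, while those of E3 and of the protein that tethers E3 to the core were not called. DLAT (ENSG00000150768.17, chromosome 11, 112024814 to 112064390) encodes E2, the lipoate-bearing acetyltransferase. It was at 67.5, 67.1 and 71.3 CPM in WT and 57.4, 61.0 and 56.2 CPM in MSLN-KO, a change of -0.24 (SE 0.06) that was called, with no overlap. PDHX (ENSG00000110435.13, chromosome 11, 34915829 to 35020591) encodes the E3-binding protein and was at 37.7, 39.8 and 38.1 CPM in WT and 35.5, 33.9 and 36.4 CPM in MSLN-KO. Its groups did not overlap, but its change of -0.12 (SE 0.06) was not called. DLD (ENSG00000091140.15, chromosome 7, 107890970 to 107931730) encodes E3, which the complex shares with the 2-oxoglutarate, branched-chain and 2-oxoadipate dehydrogenases and the glycine cleavage system.

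DLD was at 61.2, 65.2 and 63.1 CPM in WT and 65.4, 64.6 and 66.5 CPM in MSLN-KO. The groups overlapped, with a change of 0.05 (SE 0.06) that was not called. Set against the other subunits, DLD was nevertheless higher: the ratio of DLD to PDHA1 was 0.568 ± 0.025 in WT and 0.720 ± 0.029 in MSLN-KO, and that of DLD to DLAT was 0.921 ± 0.045 in WT and 1.13 ± 0.063 in MSLN-KO, both without overlap. The ratio of DLAT to PDHX, the core to its tether, overlapped between the groups.

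**Figure D1:**
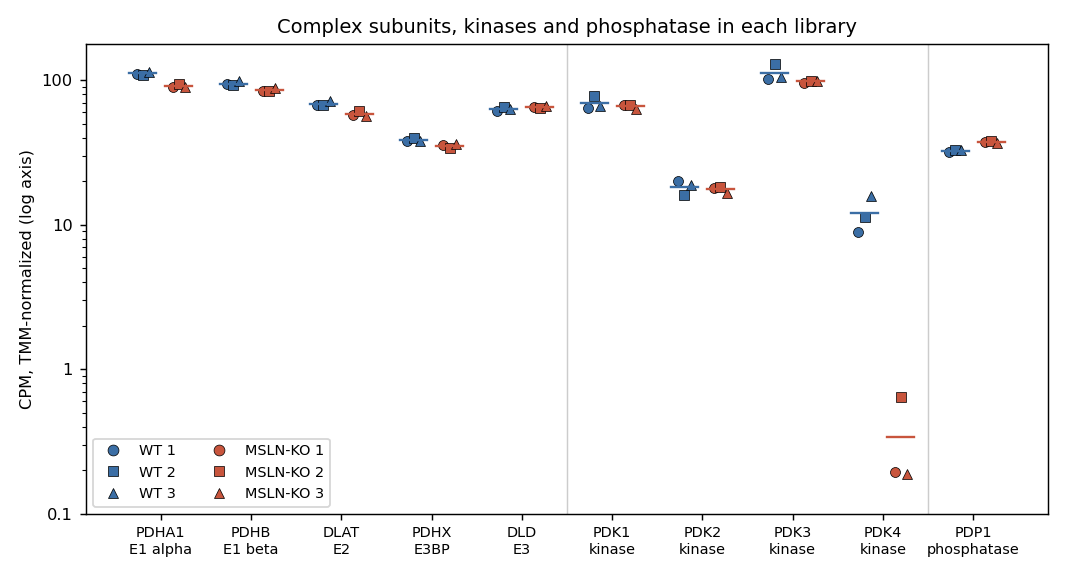
Level of each of the 10 members in CPM (log10 axis) in the 3 WT and 3 MSLN-KO libraries, 1 point per library with the group mean as a bar. PDK4 is at 8.89 to 15.7 CPM in WT and at 0.188 to 0.640 CPM in MSLN-KO, while every other member keeps a similar level in both groups.

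Of the 4 kinases, PDK4 was low in all MSLN-KO libraries, and the other 3 were not called. PDK4 (ENSG00000004799.8, chromosome 7, 95583499 to 95596491) was at 8.89, 11.4 and 15.7 CPM in WT and at 0.194, 0.640 and 0.188 CPM in MSLN-KO. The lowest WT library thus stood far above the highest MSLN-KO library. No listed gene has its third-highest library under 4.9 CPM. A gene this low in MSLN-KO can thus be listed only with every WT library at 4.9 CPM or more. That the groups of PDK4 do not overlap follows from this and is no result. The means of 12.0 ± 3.45 and 0.341 ± 0.259 CPM differ 35.2-fold, and 62.7-fold without MSLN-KO replicate 2, the library with the most PDK4 in its group. With any other library left out the fold lay between 28.7 and 39.7. As a difference of log2(CPM + 1) the change was -3.26 (SE 0.19), a scale that shrinks the change of so low a gene. In reads, as recovered from the smallest step of each column, PDK4 had 218, 294 and 373 in WT and 5, 17 and 6 in MSLN-KO. The table has too few low values to check these recovered reads. The pooled ratio of 35.9 has a 95% counting interval of 24.7 to 54.3, which covers counting error only. Of all 11363 genes, 1 had a smaller ratio of MSLN-KO to WT than PDK4, and 3 had a lower log2 change. This place holds among the listed genes only.

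PDK3 (ENSG00000067992.17, chromosome X, 24465221 to 24541862), the kinase with the highest intrinsic activity in biochemical studies, had the highest CPM of the 4. It was at 102.0, 128.4 and 104.5 CPM in WT and 96.0, 99.1 and 99.2 CPM in MSLN-KO. All MSLN-KO values lay below all WT values, and the change of -0.18 (SE 0.08) was not called. WT replicate 2 was the high library, and the call depended on WT replicate 1: without it the change was -0.24 and was called.

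PDK1 (ENSG00000152256.14, chromosome 2, 172555373 to 172608669) was at 63.9, 77.4 and 65.8 CPM in WT and 67.5, 67.8 and 62.7 CPM in MSLN-KO. PDK2 (ENSG00000005882.12, chromosome 17, 50094737 to 50112152), a kinase present in most tissues, was at 19.9, 16.1 and 18.9 CPM in WT and 17.9, 18.3 and 16.7 CPM in MSLN-KO. In both genes the groups overlapped, and the changes of -0.06 (SE 0.07) for PDK1 and -0.05 (SE 0.09) for PDK2 were not called.

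The spread between WT libraries was wider for the kinases than for the complex. The coefficient of variation in WT was 28.8% for PDK4, 13.1% for PDK3, 10.8% for PDK2 and 10.6% for PDK1, against 2.39% to 3.53% for the 5 genes of the complex and 6.15%, the median of all genes. In WT replicate 2, PDK3 and PDK1 had their highest and PDK2 its lowest level of all 6 libraries. In MSLN-KO the coefficient was 1.85% to 4.76% for PDK1, PDK2 and PDK3, and 76.0% for PDK4, whose level there rests on the few reads given above.

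PDP1 (ENSG00000164951.16, chromosome 8, 93857807 to 93926066), the catalytic subunit of the calcium-stimulated phosphatase, was the member called higher. It was at 31.6, 33.1 and 32.7 CPM in WT and 37.3, 37.7 and 36.7 CPM in MSLN-KO. The groups did not overlap, and the change was 0.19 (SE 0.06), with means of 32.48 ± 0.766 and 37.24 ± 0.546 CPM. The call was lost without WT replicate 1, WT replicate 3, MSLN-KO replicate 1 or MSLN-KO replicate 2. The ratio of PDP1 to PDHA1, a phosphatase against its substrate, was 0.287, 0.303 and 0.286 in WT and 0.418, 0.401 and 0.408 in MSLN-KO. Those are ratios of CPM, and the mean ratio was 1.40 times as high in MSLN-KO. Of the kinases, the ratios of PDK3 and PDK1 to PDHA1 overlapped between the groups, and that of PDK2 was not computed. The mean ratio of PDK4 to PDHA1 was 0.107 in WT and 0.0037 in MSLN-KO, without overlap. As for PDK4 itself, that lack of overlap is no result.

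**Figure D2:**
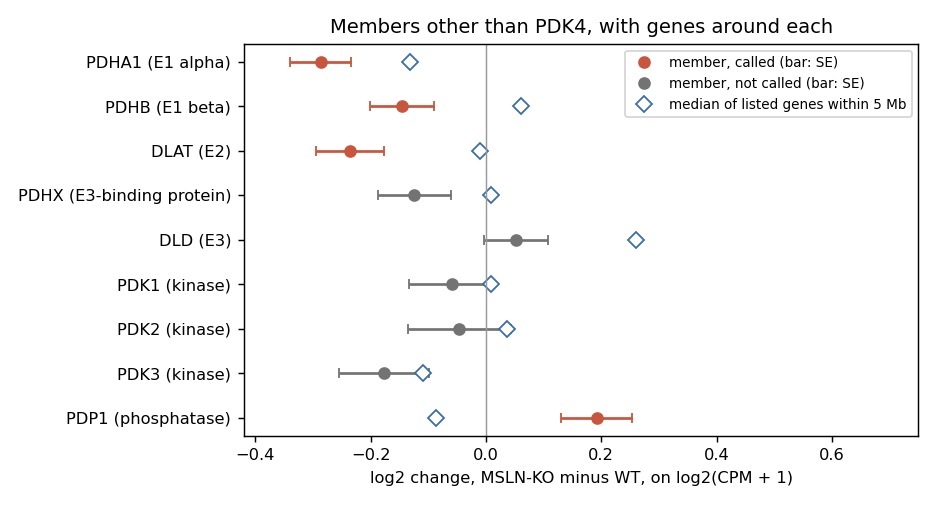
Change of each member other than PDK4 between MSLN-KO and WT on the log2(CPM + 1) scale, with a bar of 1 SE, and as an open diamond the median change of the listed genes within 5 Mb of it. PDHA1, PDHB and DLAT lie left of 0 and PDP1 right of it, and DLD lies left of the genes around it, whose median is 0.26.

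Levels of different genes can be set side by side only per length, here as CPM per kb of annotated exon (the union over the transcripts of a gene in GENCODE 29). In WT the order was PDHA1 (24.8), PDK3 (22.5 ± 2.95), PDHB (20.1), DLAT (14.2), DLD (11.9), PDHX (10.3), PDP1 (5.80), PDK1 (4.64), PDK2 (3.34) and PDK4 (2.65 ± 0.764). By this length PDK3 and its neighbours PDHA1 and PDHB did not differ beyond their spread. In MSLN-KO DLD, at 12.4, stood next to DLAT, at 12.0, and PDK4 was at 0.075 ± 0.057. The place of PDK1 depends on its annotated exons, 14883 bp against 3760 to 5603 bp for the other members. With the longest transcript of each gene in place of the union, PDK2 stood above PDK1, DLD above DLAT, and PDHA1, at 31.9 ± 0.764, stood clear of PDK3, at 23.7 ± 3.09. Which transcripts the cells used was not measured.

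By the same per-length level, PDK3 made up most of the kinase RNA in both groups, 67.8% ± 2.93 in WT and 72.0% ± 1.17 in MSLN-KO. The share of PDK4 was 6.46%, 6.88% and 10.7% in the WT libraries and 0.158%, 0.505% and 0.153% in the MSLN-KO libraries. PDK1 made up 14.0% ± 0.30 in WT and 16.1% ± 0.627 in MSLN-KO, and PDK2 10.2% ± 1.98 and 11.7% ± 0.476. The summed level of the 4 kinases was 30.5, 36.6 and 32.5 CPM per kb in WT and 27.2, 28.05 and 27.3 CPM per kb in MSLN-KO. All MSLN-KO sums lay below all WT sums. The mean of PDK4 went from 2.65 to 0.075 CPM per kb and that of PDK3, which was not called, from 22.5 to 19.8, with WT replicate 2 at 25.9 and the other WT libraries at 20.6 and 21.1. RNA levels do not give the phosphorylation of E1 alpha, which was not measured.

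**Figure D3:**
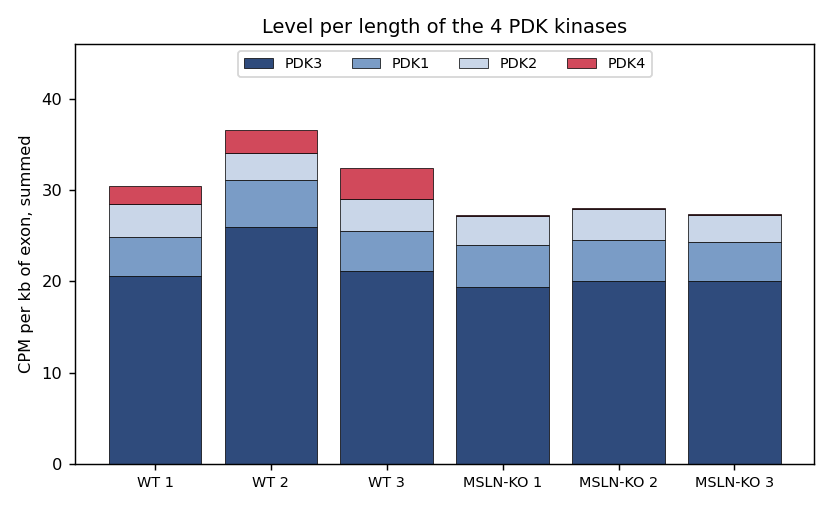
Level of the 4 kinases in each library, in CPM per kb of exon, stacked so that the bar height is their sum. PDK3 fills most of every bar, and the PDK4 segment, 6.46% to 10.7% of the sum in WT, is too thin to see in MSLN-KO.

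The position of the members was set beside their changes, since whole segments differed between the libraries. The 4 listed genes that lie within 1 Mb of PDK4 were all called lower, but by far less than PDK4: SLC25A13 by a change of -0.39, PON2 of -0.36, SEM1 of -0.45 and DYNC1I1 of -0.41. The call of PON2, a paraoxonase 148170 bp away (limma adjusted p = 0.015), was lost without WT replicate 3 or MSLN-KO replicate 2. The next listed gene on the other side is DYNC1I1, a dynein chain 176015 bp away (limma adjusted p = 0.00014). Windows of 5 Mb around each member were chosen after the data had been seen. The counts in such windows stand beside 22.4% called higher and 23.3% called lower among all genes. Around PDK4 such a window held 74 listed genes, 8 called higher and 26 lower, with a median change of -0.09. Around DLD, on the same chromosome, 21 of 30 were called higher and 1 lower, with a median of 0.26, so DLD stood below the genes around it. That window lies in a longer stretch: of the 214 listed genes of chromosome 7 from 100 Mb on, 89 were called higher and 26 lower, with a median of 0.16. The limit of 100 Mb was also set after the data had been seen. The genes around PDHA1 had a median of -0.13 (5 of 31 higher, 12 lower), those around PDK3, also on chromosome X, of -0.11, and those around PDP1 of -0.09, opposite in sign to PDP1. Around PDHB, DLAT, PDHX, PDK1 and PDK2 the medians lay between -0.01 and 0.06. Within 1 Mb, the width used first for PDK4, the medians rest on 7 to 19 genes around the other members and were partly lower: -0.12 around both DLAT (4 of 11 called lower) and PDHX (2 of 8), -0.09 around PDK1, -0.02 around PDHB and 0.04 around PDK2. They were -0.13 around PDHA1, -0.15 around PDK3, -0.11 around PDP1 and 0.14 around DLD. The change of PDHX, -0.12, was close to the median of the genes within 1 Mb of it. The part of these segments in the changes of the members was not tested.

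The 5 genes whose pattern over the 6 libraries was most like that of PDK4, by the root mean square difference of centred log2(CPM + 1), were DEFB1 (0.139), GABRA4 (0.189), AGR2 (0.196), ANPEP (0.218) and CLDN1 (0.237). DEFB1, a defensin, was at 88.6, 98.5 and 132.2 CPM in WT and 10.6, 11.3 and 7.92 CPM in MSLN-KO. AGR2, a protein of the secretory pathway, was at 6.89, 10.2 and 14.2 CPM in WT and 0.350, 0.640 and 0.408 CPM in MSLN-KO. All 5 had, like PDK4, their lowest WT level in WT replicate 1 and their highest in WT replicate 3. Of the 5, ANPEP lies on chromosome 15. The measure picks genes for this likeness, so the likeness itself is no result.

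The genes around the complex were read from lists that hold no member. Their counts are to be read beside the 22.4% of all genes that rose and the 23.3% that fell, which several lists come near. Of 14 listed genes of pyruvate supply and its other fates (16 in the list), 4 rose and 6 fell, with a median change of -0.10. GPT2, the mitochondrial alanine transaminase, rose from 11.8 ± 2.52 to 54.4 CPM (53.0, 55.1 and 55.2 in the 3 MSLN-KO libraries; limma adjusted p = 8.7e-09), and PCK2, the mitochondrial phosphoenolpyruvate carboxykinase, from 27.9 ± 5.27 to 65.5 ± 4.74 CPM (limma adjusted p = 1.3e-06). LDHA, which turns pyruvate into lactate, fell from 793.9 ± 5.83 to 494.5 ± 51.1 CPM (limma adjusted p = 5.6e-06). PKM, the pyruvate kinase gene, fell from 1984 ± 108 to 641.7 ± 67.9 CPM, and lies on chromosome 15, whose genes were lower as a whole. MPC1, a subunit of the mitochondrial pyruvate carrier, fell, with a change of -0.21, and its partner MPC2 had a change of -0.08 and was not called.

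Of the 4 other listed genes of the phosphatases and of regulation, PDPR, the regulatory subunit of the phosphatase, rose from 40.3 ± 2.48 to 53.1 ± 1.55 CPM (limma adjusted p = 0.0003), and the other 3, PDP2 among them with a change of -0.05, were not called. Of 18 listed genes that supply lipoate and thiamine cofactors (19 in the list), 5 rose and 6 fell, with a median of -0.10. LIAS, the lipoate synthase, rose by a change of 0.39, and MECR of mitochondrial fatty acid synthesis from 12.3 ± 1.26 to 16.7 ± 0.218 CPM. BOLA3, which serves iron-sulfur cluster transfer to lipoate synthase, fell from 14.5 ± 0.547 to 10.5 ± 0.315 CPM, and NDUFAB1, the mitochondrial acyl carrier protein, from 47.0 ± 3.91 to 38.1 ± 0.995 CPM.

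The sister complexes built on the same plan gave 2 rises and 2 falls among 10 listed genes (11 in the list), with a median of 0.03. OGDH, E1 of the 2-oxoglutarate complex, fell from 166.4 ± 6.78 to 137.7 ± 11.6 CPM (limma adjusted p = 0.0041), and DHTKD1, E1 of the 2-oxoadipate complex, from 96.6 ± 4.70 to 81.5 ± 2.33 CPM. Of the branched-chain complex, the E2 gene DBT rose from 26.3 ± 2.29 to 31.1 ± 0.463 CPM, a call lost without WT replicate 3, MSLN-KO replicate 1 or MSLN-KO replicate 2. Its phosphatase PPM1K rose from 8.44 ± 1.13 to 11.3 ± 0.575 CPM (limma adjusted p = 0.0083), while its kinase BCKDK, a relative of the pyruvate dehydrogenase kinases, had a change of 0.00. DLST, E2 of the 2-oxoglutarate complex, had a change of 0.05 and was not called.

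Downstream of the complex, falls outnumbered rises. Of the 15 genes of the tricarboxylic acid cycle, all listed, 9 fell and 1 rose, with a median of -0.28. IDH3A fell from 57.6 ± 1.77 to 37.5 ± 2.10 CPM and IDH2 from 175.5 ± 9.77 to 121.0 ± 8.12 CPM. Both lie on chromosome 15, and without them 7 of 13 fell, with a median of -0.25. Citrate synthase, CS, which takes up the acetyl-CoA, was the gene that rose, from 169.6 ± 2.68 to 187.3 ± 9.07 CPM (limma adjusted p = 0.047, between 0.017 and 0.20 over the alternatives), a call lost in each fit that left out a library other than MSLN-KO replicate 3. Of 11 genes that use or export acetyl-CoA, 7 fell and 0 rose, with a median of -0.30. Steps towards cholesterol and ketone bodies fell most: HMGCS1 from 1046 ± 88.7 to 361.1 ± 19.3 CPM and ACAT2 from 189.6 ± 17.5 to 81.1 ± 6.27 CPM (limma adjusted p = 2.2e-09 and 4.2e-08).

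Next come lists of genes that share known inputs with PDK4, again beside 22.4% higher and 23.3% lower among all genes. Of 19 listed genes of fatty acid oxidation and other PPAR targets (22 in the list), 4 rose and 8 fell, with a median of -0.08. CPT1A, the carnitine transferase that admits fatty acids to mitochondria, rose from 35.6 ± 3.88 to 47.3 ± 3.04 CPM, and ECI1, an enoyl-CoA isomerase, from 16.6 ± 1.29 to 29.2 ± 1.44 CPM. FABP5, a fatty acid binding protein, fell from 49.9 ± 2.85 to 30.4 ± 0.333 CPM, and ETFA, an electron carrier of fatty acid oxidation on chromosome 15, from 109.5 ± 2.19 to 67.7 ± 1.20 CPM.

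Of 17 listed targets of FOXO factors and glucocorticoids (18 in the list), 6 rose and 4 fell, with a median of 0.07. TXNIP, which restrains glucose uptake, rose from 536.3 ± 89.1 to 1021 ± 50.2 CPM, and TSC22D3, a glucocorticoid-induced gene, from 38.4 ± 4.74 to 63.6 ± 5.44 CPM. SESN3 fell from 147.3 ± 9.73 to 65.4 ± 3.00 CPM and IRS2, an adaptor of insulin signalling, from 103.7 ± 5.91 to 62.9 ± 1.05 CPM. The transcription factors known to act on PDK4 gave 7 rises and 1 fall among 17 listed genes (19 in the list), with a median of 0.06. RARA rose from 24.8 ± 0.904 to 34.8 ± 6.37 CPM (limma adjusted p = 0.0045) and PPARG from 8.32 ± 0.915 to 11.1 ± 1.22 CPM (limma adjusted p = 0.011). HDAC3, a corepressor subunit, was the gene that fell, from 80.3 ± 0.268 to 72.3 ± 1.47 CPM, a call lost under 8 of the alternatives.

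Hypoxia factor targets, to which PDK1 belongs by its known regulation, had the largest share of falls among these lists: 19 of 23 listed genes fell (25 in the list), 1 rose and 3 were not called, with a median of -0.42. BNIP3, a mitophagy receptor, fell from 56.9 ± 5.87 to 29.5 ± 6.59 CPM (limma adjusted p = 7.8e-05) and PFKFB4, a glycolytic regulator, from 66.0 ± 2.18 to 35.1 ± 8.37 CPM (limma adjusted p = 9.0e-05). In both genes MSLN-KO replicate 3 was the lowest library. VEGFA, a growth factor for blood vessels, rose from 108.2 ± 4.76 to 173.3 ± 8.39 CPM. The change of PDK1, -0.06, lay well above the median of these genes. LDHA is counted in this list and in that of pyruvate supply.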

How the data were processed

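RNA from 3 WT and 3 MSLN-KO samples of NOMO-1 cells was sequenced as stranded, ribosomal RNA-depleted total RNA libraries, per the labels' protocols. The submitters' processing notes name STAR, featureCounts, edgeR and the build GRCh38/hg38. Versions, annotation and whether counting used strand are not given in the labels or the table, so reads of overlapping antisense genes may be included. The deposited table holds CPM after TMM normalization by the authors, for 11363 genes whose third-highest library is never under 4.9 CPM. Column totals lay between 967718 and 1009572. In each column 100% of the values were whole multiples of the smallest step, within 0.01 of it, which gives 23665824 to 30804446 reads per library in the listed genes. Read numbers and the 95% counting interval of PDK4 rest on that step.

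Symbols were found for 11354 genes and GENCODE release 29 coordinates (1-based) for 11314. The fit used limma 3.58.1 in R 4.3.3 (lmFit, eBayes with an intensity trend) of log2(CPM + 1), with no covariates and the 6 libraries together. A minimum mean of 0.5 CPM removed no gene. The fit was also run on simulated data with few changed genes, equal depth and the same dispersion for all genes. That setting differs from these data, where 45.7% of genes were called, so the run does not bear on the calls given here. Members, gene lists, motifs and tests were chosen with earlier results of these data known. The text names all 10 members, from each list the 2 called genes that rose most and the 2 that fell most, given groups that do not overlap, the 5 genes most like PDK4 and its nearest listed neighbours, except for 1 gene that is not reported here. Genes named besides these (MPC1, MPC2, PDP2, LIAS, BCKDK, DLST, SLC25A13 and SEM1) were picked for their role or position after their values were seen. The alternatives were other pseudocounts, a minimum mean of 5 CPM, no minimum mean, rescaled columns and no variance trend. Further ones were the replicate number as a block, leaving out the genes of chromosome 15 and leaving out each library.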

Additional observations from a re-analysis of the deposited data

How the results depend on the processing

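The number of genes called was 5197, and 4092 to 5114 with 1 library left out. It was 4841 without the genes of chromosome 15, which takes them out of the test, and 4946 to 5220 under the other alternatives. Of 626 changes of members and other named genes recomputed, 594 kept direction and side of the threshold, 31 lost the call, 1 gained it and 0 reversed. For the members these numbers were 140, 128, 11, 1 and 0. The alternative with no minimum mean repeats the main fit, since the main minimum removed no gene. Its changes are thus among those kept in both tallies by construction. With 1 library left out, the count of genes called higher ran from 0 to 1 for the members, 2 to 3 for pyruvate supply, 3 to 5 for lipoate and thiamine supply, 1 to 2 for the sister complexes, 0 to 1 for the tricarboxylic acid cycle, 0 to 2 for acetyl-CoA use and 3 to 7 for the transcription factors acting on PDK4. The count called lower ran from 2 to 5 for lipoate and thiamine supply and from 0 to 1 for those transcription factors. Without the variance trend, 0 genes of the tricarboxylic acid cycle were called higher, 4 of the transcription factors higher and 0 lower. With columns rescaled to the same total, 0 of the transcription factors were called lower, and the median change of all genes moved from 0.01 to 0.04. Same-numbered libraries did not deviate together (correlations of 0.19, -0.17 and -0.09), so the numbers do not pair them. With the replicate block 4946 genes were called, 3 members lower (PDHB was lost), 0 genes of the tricarboxylic acid cycle higher and 0 of the transcription factors lower. Beyond the smaller number of libraries in the leave-out fits, the cause was not tested. The planned count-based tests on whole reads were not run, since the table is CPM with too few low values to check the reads recovered from it. Depth limits PDK4 in MSLN-KO, which rests on 28 recovered reads in all.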
